A study of Mus musculus with 13 samples.

Results

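The erythro-megakaryocytic GATA transcription factor complex was examined as a list of 10 genes named from general knowledge: *Gata1*, *Gata2*, *Zfpm1*, *Tal1*, *Lmo2*, *Ldb1*, *Klf1*, *Nfe2*, *Gfi1b*, and *Lyl1*. Each symbol matched a single Ensembl identifier in the mouse gene annotation GENCODE M21 (genome build GRCm38), so that the members are 10 of the 54838 genes in the count table. The rule that lists them uses no measured value, although earlier results of these data were known when the list was made. All 10 were among the 17795 genes that passed the filter on low counts and were tested, with 113 to 6861 reads per mouse.

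RNA had been sequenced from 50000 sorted Lin- cKit+ BM cells per mouse, the marrow fraction that lacks mature lineage markers and contains the HSPCs. Control mice (n = 3) carried *Mx1-Cre* alone, p53mut mice (n = 3) also carried the p53 R172H/+ allele, NrasG12D mice (n = 3) the Nras G12D/+ allele, and NPmut mice (n = 4) both alleles. All groups thus carried *Mx1-Cre*, a recombinase gene driven by an interferon-inducible promoter that is not specific to hematopoietic cells, and all were on a C57BL/6J background. The genotype label of the NrasG12D samples reads Nras G21D/+, whereas their titles give G12D, which is the name used here. At about 6 weeks of age, pI-pC, which mimics viral RNA and so switches on interferon and the Cre, was given 3 times at 100 μg to control, p53mut, and NrasG12D mice. NPmut mice had been given none and were moribund with disease, so that in these libraries the effects of both alleles together, of the missing injections, and of the stage of disease cannot be told apart. The titles of the control, p53mut, and NrasG12D samples call these mice age-matched. The labels name separate mice but neither litters nor days of collection.

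GATA1 and GATA2 are zinc finger proteins that bind the same DNA motif. GATA2 is known for maintaining stem and early progenitor cells and mast cells, and is replaced by GATA1 at many sites as cells commit to the erythroid and megakaryocytic lineages. FOG-1, encoded by *Zfpm1*, binds GATA1 directly, and a complex of TAL1 or LYL1, LMO2, and LDB1 joins GATA factors to nearby E-box motifs and loops enhancers to promoters, whereas KLF1, NF-E2, and GFI1B act at many of the same genes.

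Between 12576174 and 29124022 reads per mouse were counted on genes. *Kit*, the receptor of the sort, had 288 to 712 CPM in all 13 libraries, where CPM are read counts scaled to a common library size with the TMM factors that edgeR estimates. Marker genes of T and NK cells were near 0, with 2.29 to 9.45 CPM summed over 8 genes, and 6 of those 8 did not pass the filter. Markers of B cells summed to 8.97 to 27.9 CPM, of which *Cd79b* held most, and those of stromal and endothelial cells to 0.763 to 17.2 CPM. As a measure of background, 1459 genes of olfactory and vomeronasal receptors held 103 to 191 CPM of the library totals in control, 58.9 to 138 in p53mut, 37.7 to 44.4 in NrasG12D, and 17.5 to 57.3 in NPmut mice. From Y-linked genes, control mouse 1, p53mut mouse 1, NrasG12D mouse 2, and NPmut mice 3 and 4 were male, which concerns *Gata1*, a gene on the X chromosome.

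RefSeq promoter windows (build GRCm38.p6, 250 bases before and 50 after a start site) were available here for 8 of the 10 members, in 12 entries. The stretches upstream of the start are shown for 5 of the 7 members that were lower in NPmut mice and for *Lyl1*, which was not. *Gata2* is not shown, *Lmo2* had no entry, and for *Tal1* the first of 2 start sites is shown. The stretches run 5′ to 3′ on the gene's strand and without annotated exons. Capitals mark AGATAA (or AGATAG) and likewise TGATAA (or TGATAG) on either strand, letters to which GATA factors bind.
Gata1, chrX:7967911-7968160, minus strand: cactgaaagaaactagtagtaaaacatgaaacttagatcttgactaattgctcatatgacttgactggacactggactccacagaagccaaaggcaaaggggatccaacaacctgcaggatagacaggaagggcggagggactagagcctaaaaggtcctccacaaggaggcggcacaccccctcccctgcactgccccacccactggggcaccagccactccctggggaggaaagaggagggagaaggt
Zfpm1, chr8:122281891-122282140, plus strand: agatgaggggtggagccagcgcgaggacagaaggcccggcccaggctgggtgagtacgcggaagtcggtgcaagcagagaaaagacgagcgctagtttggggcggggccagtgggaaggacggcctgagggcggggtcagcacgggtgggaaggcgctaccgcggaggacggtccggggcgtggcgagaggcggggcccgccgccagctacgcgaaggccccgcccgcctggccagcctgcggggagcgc
Tal1, chr4:115056176-115056425, plus strand: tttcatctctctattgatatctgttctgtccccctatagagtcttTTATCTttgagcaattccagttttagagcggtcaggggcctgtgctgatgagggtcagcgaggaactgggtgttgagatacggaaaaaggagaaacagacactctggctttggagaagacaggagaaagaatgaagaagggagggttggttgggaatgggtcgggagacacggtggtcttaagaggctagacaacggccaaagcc
Klf1, chr8:84901732-84901927, plus strand: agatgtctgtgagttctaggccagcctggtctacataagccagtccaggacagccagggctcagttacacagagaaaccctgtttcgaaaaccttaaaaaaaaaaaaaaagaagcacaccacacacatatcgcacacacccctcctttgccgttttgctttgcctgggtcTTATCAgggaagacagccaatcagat
Gfi1b, chr2:28621983-28622232, minus strand: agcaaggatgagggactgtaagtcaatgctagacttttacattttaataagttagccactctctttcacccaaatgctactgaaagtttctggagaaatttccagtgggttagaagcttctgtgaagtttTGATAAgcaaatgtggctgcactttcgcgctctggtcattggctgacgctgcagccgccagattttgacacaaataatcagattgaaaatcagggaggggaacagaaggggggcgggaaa
Lyl1, chr8:84701207-84701456, plus strand: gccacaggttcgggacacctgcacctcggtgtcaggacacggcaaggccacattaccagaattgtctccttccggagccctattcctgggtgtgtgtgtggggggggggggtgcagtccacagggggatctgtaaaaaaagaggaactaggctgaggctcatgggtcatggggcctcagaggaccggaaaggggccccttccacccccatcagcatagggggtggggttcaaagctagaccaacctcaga
Within the 250 upstream bases, 4 of the 12 member entries held such a motif, and so did 26.5% of 32841 mouse promoter windows. They were 1 of 2 *Tal1* start sites, 1 of 3 *Ldb1* start sites, *Klf1*, with TGATAA on the opposite strand 75 to 80 bases upstream, and *Gfi1b*, with TGATAA 115 to 120 bases upstream. The second *Tal1* start site and both *Gata2* entries, which are not shown, held 0 such motifs. The letters CCNCNCCC, a form of the CACCC box that KLF factors bind, occurred on either strand in 10 of the 12 entries and in 45.9% of all windows, including 3 matches in the *Gata1* window. Forms of the E-box (CAGCTG as well as CAGATG read on both strands) occurred in 1 entry, that of *Klf1*, and in 25.5% of all windows. The NF-E2 motif (TGACTCA on both strands) occurred in 0 entries (4.46%), and a core of ETS sites (AGGAAG or else CGGAAG, on both strands) in 5 (39.2%). These are matches of letters, not measured binding.

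In NPmut against control HSPCs, 7 of the 10 members were lower and 1 was higher at an adjusted p under 0.05 from edgeR's quasi-likelihood test with Benjamini-Hochberg adjustment over all genes tested. Of all genes tested, 5.54% were lower and 5.38% higher by the same rule. *Gata1*, *Gata2*, *Zfpm1*, *Tal1*, *Klf1*, and *Gfi1b* fell 2.40- to 3.49-fold, *Lmo2* fell by less, *Lyl1* rose, and *Ldb1* and *Nfe2* did not pass the test. The median log2 fold change of the members was -1.34, beside 0.01 over all genes, and 6 members were DEGs (called and changed by 1 or more on the log2 scale), against 3.69% of all genes that were lower DEGs. At an unadjusted p under 0.05 there were 9 members, against 25.6% of all genes. All NPmut mice lay below all control mice in 8 members and above them in 1, whereas 11.5% and 10.4% of all genes did. In a bulk sample, fewer cells of a type and less RNA per cell cannot be told apart. The number of members called, 8 in all, fell to 4 when control mouse 1, control mouse 2, or NPmut mouse 1 was left out and to 1 when control mouse 3 was, and *Tal1* was called in each of these fits. Calls over all genes fell as well, from 958 higher and 986 lower to 595 and 585 without control mouse 1. They were 520 and 632 without control mouse 2, 726 and 716 without NPmut mouse 1, and 356 and 457 without control mouse 3.

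**Figure D1:**
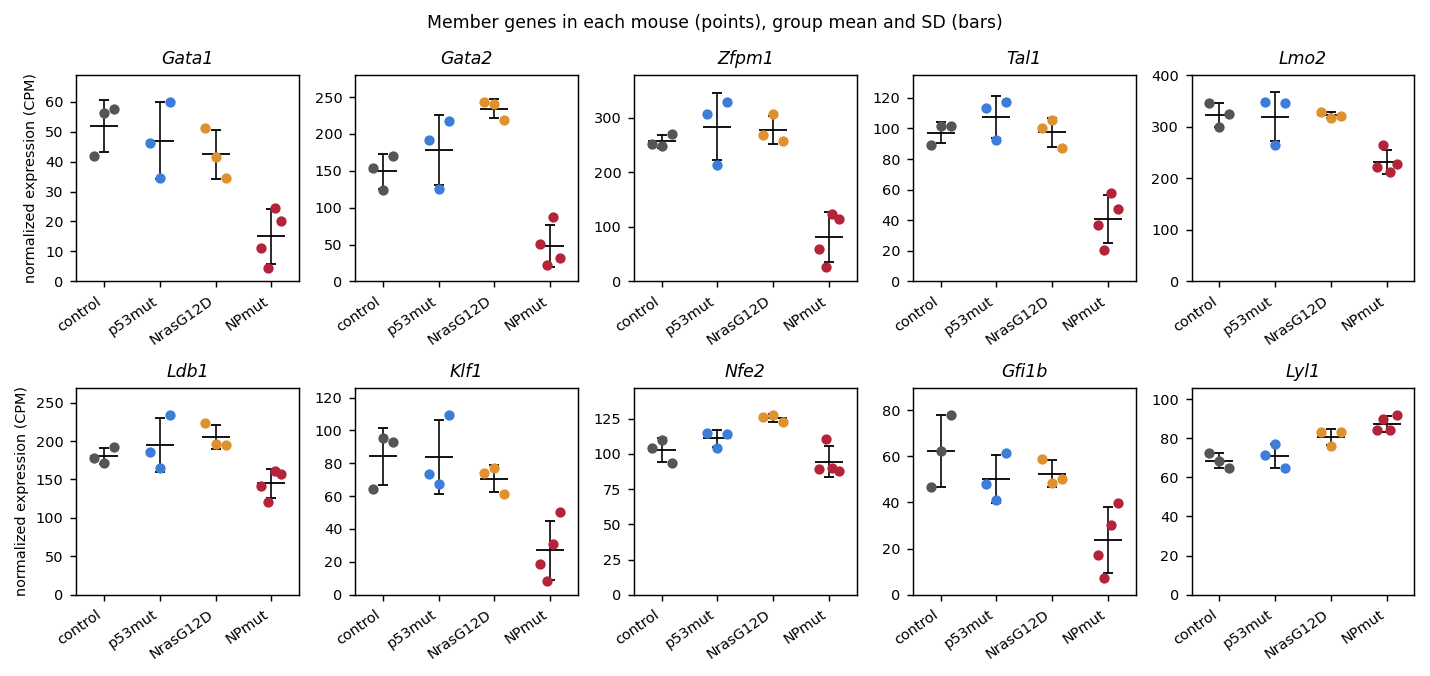
Normalized expression (CPM, linear axes from 0) of the 10 members by group, with 1 point per mouse and the group mean with its SD as bars. All 4 NPmut points lie below the 9 other mice in 8 panels, the exceptions being Nfe2 and Lyl1, and NPmut mouse 2, the second point of its group, is lowest in 7.

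The GATA factors themselves were low in NPmut mice. *Gata1* (ENSMUSG00000031162, chrX:7959260-7978071, minus strand) had 41.9, 56.1, and 57.7 CPM in control mice 1 to 3, and 11.1, 4.36, 24.6, and 20.2 CPM in NPmut mice 1 to 4. It had 46.4, 34.6, and 60.04 CPM in p53mut and 51.1, 41.4, and 34.6 CPM in NrasG12D mice. The highest NPmut mouse thus lay below the lowest of the other 9 mice. *Gata1* was 3.49-fold lower in NPmut than in control mice (log2 fold change -1.80, SE 0.43, 95% interval -2.73 to -0.87, adjusted p = 0.0194). With sex as a term the value was -1.97 (adjusted p = 0.0162). It lost its call without control mouse 2 (0.0572), control mouse 3 (0.0757), or NPmut mouse 1 (0.0558).

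*Gata2* (ENSMUSG00000015053, chr6:88193891-88207032, plus strand) had 154, 123, and 171 CPM in control, 192, 125, and 217 in p53mut, 244, 241, and 219 in NrasG12D, and 50.5, 21.8, 86.7, and 31.9 CPM in NPmut mice. The NrasG12D mice were the highest as a group, above every control mouse, the p53mut mice overlapped the control mice, and the NPmut mice were the lowest without overlap. *Gata2* was 3.13-fold lower in NPmut than in control mice (log2 fold change -1.64, SE 0.36, 95% interval -2.44 to -0.85, adjusted p = 0.0142), and was not called without control mouse 3 (0.065). NPmut mice 2 and 4 had the least *Gata2*, whereas NPmut mice 2 and 1 had the least *Gata1*. The ratio of *Gata1* to *Gata2* per exonic length was 0.604, 1.01, and 0.749 in control and 0.485, 0.443, 0.629, and 1.40 in NPmut mice, which overlap. On the log2 scale the ratio was -0.38 ± 0.37 (SD, n = 3) in control and -0.60 ± 0.76 (SD, n = 4) in NPmut mice, a difference of -0.22 (two-sided exact permutation test, p = 0.686, where the smallest p that 35 splits allow is 0.0571). It was 0.534 to 0.613 in p53mut and 0.350 to 0.464 in NrasG12D mice, and the NrasG12D mice, with the most *Gata2*, all lay below all control mice.

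*Zfpm1* (ENSMUSG00000049577, chr8:122282141-122337251, plus strand), which encodes the GATA1 cofactor FOG-1, had 252, 249, and 271 CPM in control and 60.2, 25.7, 123, and 115 CPM in NPmut mice. In p53mut and NrasG12D mice it ranged from 214 to 330 and from 258 to 306 CPM. Even the highest NPmut mouse, mouse 3, lay far below the lowest of the other 9 mice, p53mut mouse 2. *Zfpm1* was 3.18-fold lower in NPmut than in control mice (log2 fold change -1.67, SE 0.39, adjusted p = 0.0184), a call lost without control mouse 1 (0.0508), control mouse 3 (0.0677), or NPmut mouse 1 (0.0532).

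Among the members that link GATA factors to DNA-bound partners, those encoding the TAL1 and LYL1 helix-loop-helix proteins went in opposite directions. *Tal1* (ENSMUSG00000028717, chr4:115056426-115071755, plus strand) had 89.1, 101, and 102 CPM in control and 36.7, 20.8, 58.1, and 47.4 CPM in NPmut mice. It had 113, 92.2, and 118 CPM in p53mut and 100, 105, and 87.1 CPM in NrasG12D mice. All 9 of these mice exceeded every NPmut mouse. *Tal1* was 2.40-fold lower in NPmut than in control mice (log2 fold change -1.26, SE 0.24, 95% interval -1.78 to -0.74) and had the smallest adjusted p of the members, 0.00511.

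*Lyl1* (ENSMUSG00000034041, chr8:84701457-84704715, plus strand) had 72.4, 68.2, and 64.7 CPM in control and 84.0, 89.6, 84.0, and 92.0 CPM in NPmut mice. The NrasG12D mice, with 83.1, 76.0, and 83.3 CPM, also lay above all control mice, and the p53mut mice, with 64.6 to 77.1 CPM, overlapped them. *Lyl1* was 1.28-fold higher in NPmut than in control mice (log2 fold change 0.35, SE 0.09, adjusted p = 0.0259). Scaled by library totals alone it was at 0.23 (0.118), and without control mouse 2 or 3 it was at 0.35 (0.0821) and 0.32 (0.125), so that the call was lost. The ratio of *Tal1* to *Lyl1* per exonic length, looked at after both genes' values had been seen, was 0.506 to 0.645 in control and 0.0954 to 0.284 in NPmut mice.

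*Lmo2* (ENSMUSG00000032698, chr2:103957986-103981878, plus strand), which encodes the LIM protein that bridges TAL1 and GATA factors, had 346, 299, and 326 CPM in control and 223, 265, 213, and 228 CPM in NPmut mice. It was 1.40-fold lower in NPmut mice (log2 fold change -0.48, SE 0.11, adjusted p = 0.015), and the groups did not overlap. The call was lost without control mouse 1 (0.0836) or control mouse 3 (0.0631). The highest NPmut mouse was mouse 2, which had the least *Gata1*, *Gata2*, *Zfpm1*, and *Tal1*. *Ldb1* (ENSMUSG00000025223, chr19:46031570-46045214, minus strand), whose product holds the complex together and joins distant sites, had 171 to 193 CPM in control and 120 to 161 CPM in NPmut mice. The groups did not overlap, and the difference of -0.32 on the log2 scale (SE 0.13, adjusted p = 0.135) was not called. *Ldb1* shares 177 of its 4606 exonic bases (3.84%) with *Pprc1* on the opposite strand, and how the authors' counting treated strand is not given in the sources used here.

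The factors that act with the complex in committed cells differed from each other. *Klf1* (ENSMUSG00000054191, chr8:84901928-84905291, plus strand), which encodes an activator of globin and other erythroid genes, had 64.4, 95.2, and 93.0 CPM in control and 18.8, 8.29, 31.1, and 50.1 CPM in NPmut mice. It was 3.16-fold lower in NPmut mice (log2 fold change -1.66, SE 0.44, 95% interval -2.62 to -0.69, adjusted p = 0.0341). *Gfi1b* (ENSMUSG00000026815, chr2:28609450-28621982, minus strand), which encodes a repressor required in both lineages, had 46.6, 62.3, and 78.0 CPM in control and 17.2, 7.44, 30.4, and 39.7 CPM in NPmut mice. It was 2.66-fold lower (log2 fold change -1.41, SE 0.41, 95% interval -2.31 to -0.52, adjusted p = 0.0463). Neither gene's groups overlapped, and NPmut mouse 4 came nearest to the control mice in both. Both calls were lost when control mouse 1, 2, or 3 or NPmut mouse 1 was left out, with adjusted p of 0.0529 to 0.109 for *Klf1* and 0.0681 to 0.170 for *Gfi1b*.

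*Nfe2* (ENSMUSG00000058794, chr15:103248212-103258403, minus strand) encodes the large subunit of NF-E2, a factor of late megakaryocytes and globin expression, and had 104, 110, and 93.3 CPM in control and 89.0, 111, 89.9, and 87.7 CPM in NPmut mice. NPmut mouse 2, lowest in 7 members, had the most *Nfe2* of its group and overlapped the control mice. The log2 fold change was -0.12 (SE 0.10, 95% interval -0.34 to 0.10, adjusted p = 0.505).

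**Figure D2:**
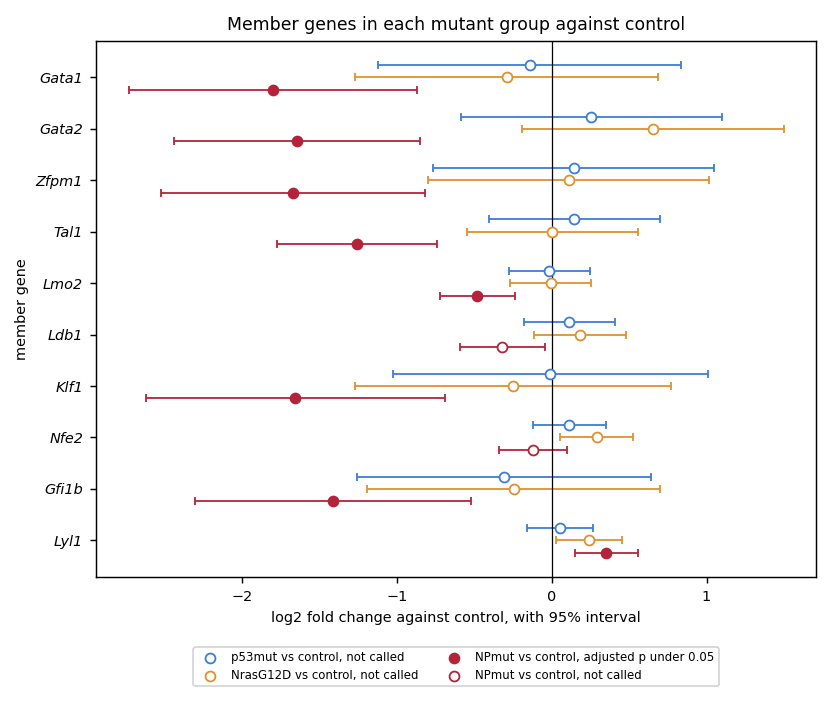
Log2 fold change of each member against control mice in p53mut, NrasG12D, and NPmut mice, with 95% intervals from the edgeR fit. Filled points have an adjusted p under 0.05, which 8 members reached in NPmut and 0 in the other groups, and the intervals of Gata1, Zfpm1, Klf1, and Gfi1b are wide in every group.

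Per exonic length, in RPKM, *Lmo2* was the most abundant member in control mice, with 150 ± 10.8 (SD, n = 3), followed by *Zfpm1* with 73.4 ± 3.47 and *Klf1* with 55.0 ± 11.2. *Ldb1* (39.2 ± 2.38), *Lyl1* (38.0 ± 2.15), *Nfe2* (34.4 ± 2.88), and *Gfi1b* (34.0 ± 8.57) followed within each other's spread, and *Gata2* (27.6 ± 4.43), *Tal1* (22.2 ± 1.62), and *Gata1* (21.3 ± 3.57) came last, the latter 2 also within their spread. In NPmut mice (n = 4) *Lmo2*, with 107 ± 10.4, was still first, and *Lyl1* was second with 48.6 ± 2.23. *Nfe2* (31.6 ± 3.67) and *Ldb1* (31.4 ± 4.00) followed, then *Zfpm1* (23.1 ± 13.2), *Klf1* (17.7 ± 11.8), and *Gfi1b* (12.9 ± 7.77), whose values overlap. *Tal1* (9.31 ± 3.63), *Gata2* (8.84 ± 5.30), and *Gata1* (6.18 ± 3.73) were again the lowest and lay within each other's spread.

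The NPmut mice differed more among themselves than other mice did in the members that fell most. The highest NPmut mouse had 6.05 times the *Klf1*, 5.65 times the *Gata1*, 5.33 times the *Gfi1b*, and 4.80 times the *Zfpm1* of the lowest. For *Gata2* and *Tal1* this quotient was 3.98 and 2.79. For these 6 genes it was 1.09 to 1.67 in control, 1.28 to 1.74 in p53mut, and 1.11 to 1.48 in NrasG12D mice. A quotient over 4 mice tends to be larger than one over 3. For *Lyl1*, *Lmo2*, *Nfe2*, and *Ldb1* it was 1.09 to 1.34 in NPmut mice. Taking each member's log2 CPM minus the mean of the control mice, the median over the members was -2.49 in NPmut mouse 2, -1.48 in mouse 1, -0.76 in mouse 3, and -0.67 in mouse 4, whereas the other 9 mice ranged from -0.26 to 0.25. NPmut mouse 4 combined one of the larger losses of *Gata2*, a difference of -2.21, with the smallest losses of *Klf1* (-0.72) and *Gfi1b* (-0.61) in its group. NPmut mouse 2 also had the most reads, 29124022, and the highest sum of monocyte and macrophage markers, 2259 CPM. Its sum of neutrophil and GMP markers was the highest too, 22980 CPM beside 13600 to 14850 in the other NPmut mice. The part of these in the low member levels of NPmut mouse 2 was not tested. Without NPmut mouse 2, the log2 fold changes were -1.49 for *Gata1* and -1.40 for *Gata2*, and 8 members were called.

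**Figure D3:**
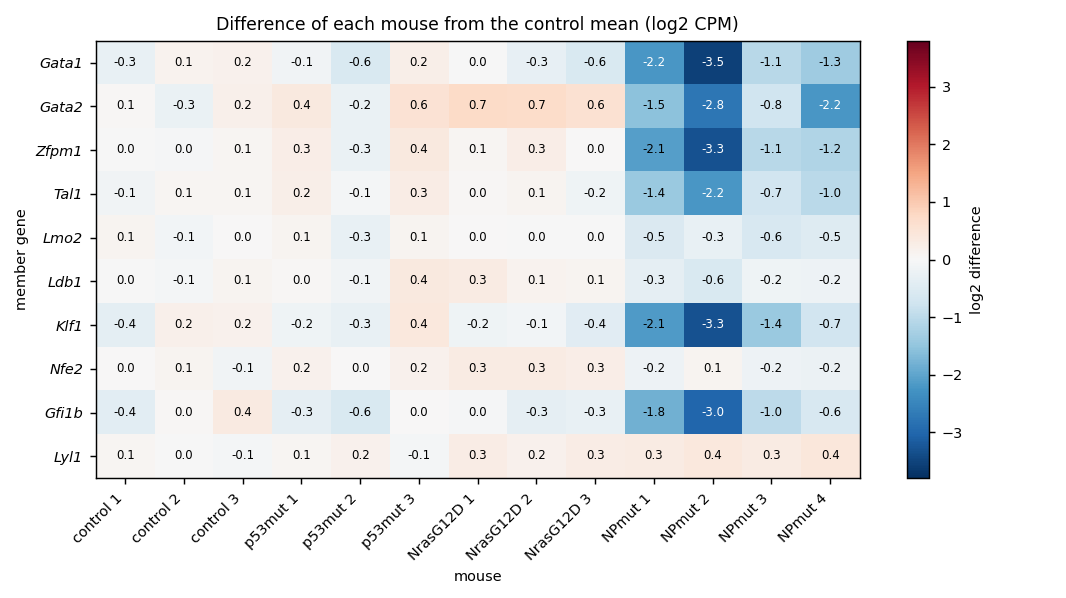
Log2 CPM of each mouse (columns) minus the mean of the control mice for the 10 members (rows), blue for lower and red for higher. NPmut mouse 2 is lowest in most rows, NPmut mouse 4 is low in Gata2 at -2.2 but less so in Klf1 and Gfi1b, and the Nfe2 and Lyl1 rows stay between -0.22 and 0.43 in NPmut mice.

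Neither mutant allele alone moved a member past the threshold. In p53mut mice 0 of the 10 members were called, as were 0% of all genes, and 0 had an unadjusted p under 0.05, against 2.33% of all genes. The ranges of p53mut and control mice overlapped in all 10, whereas 5.71% of all genes lay wholly lower and 5.47% wholly higher in p53mut mice. The largest log2 fold changes were -0.31 for *Gfi1b* (95% interval -1.26 to 0.64) and 0.26 for *Gata2* (-0.59 to 1.10), and all adjusted p were 0.9998. A fit of p53mut and control mice alone, with same-numbered mice paired, also called 0 members. It called 23 of 16685 genes higher and 33 lower. In NrasG12D mice 0 members were called, against 0.00562% of all genes, which is 1 gene, and 2 members, *Nfe2* and *Lyl1*, had an unadjusted p under 0.05, against 9.23%. *Gata2* (log2 fold change 0.65, 95% interval -0.19 to 1.498, adjusted p = 0.679), *Nfe2* (0.29, adjusted p = 0.422), *Lyl1* (0.24, adjusted p = 0.475), and *Ldb1* (0.18, adjusted p = 0.759) had all 3 NrasG12D mice above all control mice, which 10.9% of all genes did. *Gata1* (-0.29), *Klf1* (-0.25), and *Gfi1b* (-0.25) had negative values that overlapped the control mice. DESeq2 called 0 members in both comparisons. Over all genes it called 1 higher and 2 lower in p53mut mice, and 119 higher and 35 lower in NrasG12D mice. The intervals of *Gata1* in p53mut (-1.12 to 0.84) and NrasG12D mice (-1.27 to 0.69) do not leave out a 2-fold decrease. In an edgeR fit of NrasG12D and control mice alone *Gata2* had an adjusted p of 0.0155. That fit called 183 of 16492 genes higher and 56 lower.

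The double mutant was also set against each single mutant. These comparisons share the NPmut mice with each other and with the comparison above. Against NrasG12D mice 7 members were lower, as were 4.97% of all genes, and 0 were higher (3.92%). The NPmut mice lay wholly below the NrasG12D mice in 9 members and wholly above them in *Lyl1*, as in 11.2% and 9.34% of all genes. *Gata2* had the largest difference, 4.91-fold lower (log2 fold change -2.30, SE 0.37, adjusted p = 0.00364), followed by *Zfpm1* (-1.78, adjusted p = 0.016), *Gata1* (-1.51, adjusted p = 0.0479), and *Tal1* (-1.27, adjusted p = 0.00613). *Ldb1* (-0.50), *Lmo2* (-0.47), and *Nfe2* (-0.41) were also lower, and *Klf1* (-1.41, adjusted p = 0.073), *Gfi1b* (-1.17, adjusted p = 0.104), and *Lyl1* (0.11, adjusted p = 0.498) did not pass. The count of 7 was 2 without NrasG12D mouse 1, 2 without mouse 2, 3 without mouse 3, and 4 without NPmut mouse 1, with *Gata2* and *Tal1* called each time. Over all genes, 697 higher and 884 lower became 236 and 481, 264 and 410, 382 and 516, and 544 and 694 in these fits. 

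Against p53mut mice 7 members were lower, as were 5.14% of all genes, and 0 were higher (4.81%). They lay wholly below the p53mut mice in 8 members and wholly above in *Lyl1*, as in 10.5% and 9.1% of all genes. The log2 fold changes were -1.90 for *Gata2* (adjusted p = 0.00725), -1.81 for *Zfpm1* (0.0133), -1.66 for *Gata1* (0.03), -1.65 for *Klf1* (0.0372), and -1.41 for *Tal1* (0.00276), and *Lmo2* and *Ldb1* fell by 0.46 and 0.43. *Gfi1b* (-1.10, adjusted p = 0.12), *Nfe2* (-0.24, adjusted p = 0.177), and *Lyl1* (0.30, adjusted p = 0.0572) were not called. Without p53mut mouse 1 or without p53mut mouse 3 the count was 2, and without NPmut mouse 1 it was 4, again with *Gata2* and *Tal1* among those called. Over all genes, 856 higher and 915 lower became 348 and 509, 287 and 363, and 609 and 699 in these fits.

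Whether the double mutant differed from the sum of the single mutants was tested by an interaction term, NPmut minus p53mut minus NrasG12D plus control on the log2 scale. *Gata2* was the only member called, at -2.55 (SE 0.54, 95% interval -3.72 to -1.39, adjusted p = 0.0387), where 1.74% of all genes were called and 1.23% were lower. *Gata2* was 0.26 and 0.65 above control in the single mutants and -1.64 in the double mutant. The interaction of *Tal1* was -1.41 (adjusted p = 0.0599), of *Zfpm1* -1.92 (adjusted p = 0.116), of *Gata1* -1.37 (adjusted p = 0.306), and of *Klf1* -1.40 (adjusted p = 0.314), and 7 members had an unadjusted p under 0.05, against 16.1% of all genes. When each mouse was left out in turn, the value of *Gata2* stayed between -3.01 and -2.31, with adjusted p of up to 0.126. The number of members called was then 1 without p53mut mouse 2, 3 without NPmut mouse 3, and 5 without NPmut mouse 2, *Gata2* among them each time, and 0 without any of the other 10 mice. Over all genes, 90 higher and 219 lower became 202 and 260, 244 and 409, and 156 and 367 in the first 3 of these fits. Without any of the other 10 mice, 6 to 54 genes were higher and 56 to 172 lower.

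Genes of other proteins known to work with the complex were read next. Of 24 partner genes, all tested, 1 was higher and 2 were lower in NPmut than in control mice, with a median log2 fold change of -0.01. Of all genes tested, 5.38% were higher and 5.54% lower, so these counts are near those shares. *Cbfa2t3*, which encodes the ETO2 corepressor that binds TAL1, had 192, 158, and 188 CPM in control and 125, 67.8, 122, and 121 CPM in NPmut mice (log2 fold change -0.72, SE 0.17, adjusted p = 0.0152). *Ssbp3*, whose product protects LDB1 from degradation, was lower by 0.67 on the log2 scale (adjusted p = 0.0283). *Maff*, a small MAF protein that pairs with NF-E2, was 6.97-fold higher (log2 fold change 2.80, adjusted p = 0.0065), with 11 to 28 reads per control and 37 to 175 per NPmut mouse, and its relative *Mafg* was at 0.33 (adjusted p = 0.052). The genes of the E-proteins that pair with TAL1, *Tcf3* (-0.08), *Tcf4* (0.00), and *Tcf12* (-0.26), of RUNX1 (-0.01), and of the corepressor LSD1, *Kdm1a* (-0.01), did not pass. Without control mouse 1 or 3, 0 partner genes were called lower, without control mouse 2 or NPmut mouse 1 there was 1, and without NPmut mouse 2 or 3, 2 were called higher.

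Genes of megakaryocytes and platelets known as GATA targets fell in the same mice as the members. Of 18 such genes 15 were tested, and 12 of these were lower and 0 higher in NPmut mice, with a median log2 fold change of -2.64. Of all genes tested, 5.54% were lower and 5.38% higher. *Vwf*, which encodes von Willebrand factor, had 29.9, 29.5, and 47.1 CPM in control and 5.41, 2.198, 6.97, and 4.16 CPM in NPmut mice, 7.62-fold lower (log2 fold change -2.93, SE 0.31, adjusted p = 0.000155). *Pf4*, encoding a platelet chemokine, was 6.87-fold lower (-2.78, adjusted p = 0.000507), and *Gp1ba* and *Gp5*, encoding subunits of the platelet receptor for von Willebrand factor, were lower by 3.14 (adjusted p = 0.000507) and by 2.82 (adjusted p = 0.00053). The reads behind these genes were few in NPmut mice, 9 to 55 for *Gp1ba* and 12 to 96 for *Pf4*. *Itga2b*, better covered with 173 to 883 reads, was lower by 1.95 (adjusted p = 0.0243). *Tubb1*, *Thbs1*, and *Clec1b*, whose products belong to platelets, did not pass. The summed level of the list was 200 to 474 CPM in control, 284 to 377 in p53mut, 256 to 306 in NrasG12D, and 45.8 to 98.9 CPM in NPmut mice, without overlap between NPmut and the others. *Thbs1* had 177 CPM in control mouse 3 and 3.10 and 4.14 CPM in the other control mice, and without it the sum was 196 to 297 CPM in control, 197 to 365 in p53mut, 256 to 286 in NrasG12D, and 25.6 to 91.2 CPM in NPmut mice, again without overlap.

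Erythroid targets had few calls. All 22 of the genes tested, of 24 listed, had a log2 fold change below 0 in NPmut against control mice, with a median of -0.89. Of these 2 were called lower, beside 5.54% of all genes. *Icam4*, a red cell adhesion molecule, was lower by 1.47 on the log2 scale (adjusted p = 0.0062), and *Car2*, a carbonic anhydrase, by 1.36 (adjusted p = 0.0385). *Car2* had 353, 478, and 475 CPM in control and 119, 64.9, 273, and 221 CPM in NPmut mice. *Epor*, the erythropoietin receptor gene, was at -1.47 (adjusted p = 0.0598) and *Tspan33* at -1.08 (adjusted p = 0.0711). The genes of terminal red cells were near the detection limit in all groups, with 1 to 49 reads for *Hba-a1* and 1 to 23 for *Alas2*, and the globin genes have near-identical copies between which reads may be split. In NrasG12D against control mice, 20 of the 22 genes were also below 0, with a median of -0.41 and 0 called. In p53mut against control mice 11 were, with a median of 0.002. Set against NrasG12D mice, the NPmut mice had 14 of the 22 below 0, with a median of -0.455 and 1 called. The sum over the list was 1172 to 1712 CPM in control, 1250 to 1939 in p53mut, 1111 to 1345 in NrasG12D, and 486 to 1129 CPM in NPmut mice. The count of 2 in NPmut against control mice was 1 without control mouse 1, 2, or 3 or NPmut mouse 1. It was 4 without NPmut mouse 3 and 7 without NPmut mouse 4.

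Of 12 genes tied to GATA2 in stem and mast cells, 7 were lower and 1 higher, where 5.54% of all genes tested were lower and 5.38% higher. The other 4, *Cpa3*, *Hdc*, *Ms4a2*, and *Hhex*, did not pass. *Mecom*, which encodes a stem cell factor, had 19.8, 18.04, and 25.2 CPM in control and 7.03, 2.39, 8.58, and 4.75 CPM in NPmut mice (log2 fold change -1.89, adjusted p = 0.00602). *Tek*, the angiopoietin receptor of stem and endothelial cells, was lower by 3.40 (adjusted p = 0.000994), with 138 to 210 reads per control and 19, 18, 30, and 0 reads in NPmut mice. *Slc18a2*, a monoamine transporter of mast cells, was lower by 2.80 (adjusted p = 0.00545), and *Fcer1a*, a subunit of the mast cell IgE receptor, had 21, 20, and 13 reads in control and 4, 0, 2, and 0 in NPmut mice. *Kit* itself was lower by 0.54 (SE 0.15, adjusted p = 0.0322), with 505 to 568 CPM in control and 288 to 450 CPM in NPmut mice. *Gpr65*, which GATA2 is known to regulate in red cell precursors, was higher by 0.77 (adjusted p = 0.0345), although the groups overlapped, and was not called without control mouse 2 or 3 or without NPmut mouse 1, 2, or 3. Stromal and endothelial markers moved with these genes. The 3 genes *Col1a2*, *Emcn*, and *Kdr* of the 4 tested were lower, and the 8 genes summed to 8.05 to 17.2 CPM in control and 0.763 to 4.20 CPM in NPmut mice, while *Cdh5*, *Col1a1*, *Lepr*, and *Bglap* had at most 14 reads in any mouse. Their part in the fall of *Tek* and *Vwf*, which endothelial cells also express, was not tested, nor was that of the background reads.

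**Figure D4:**
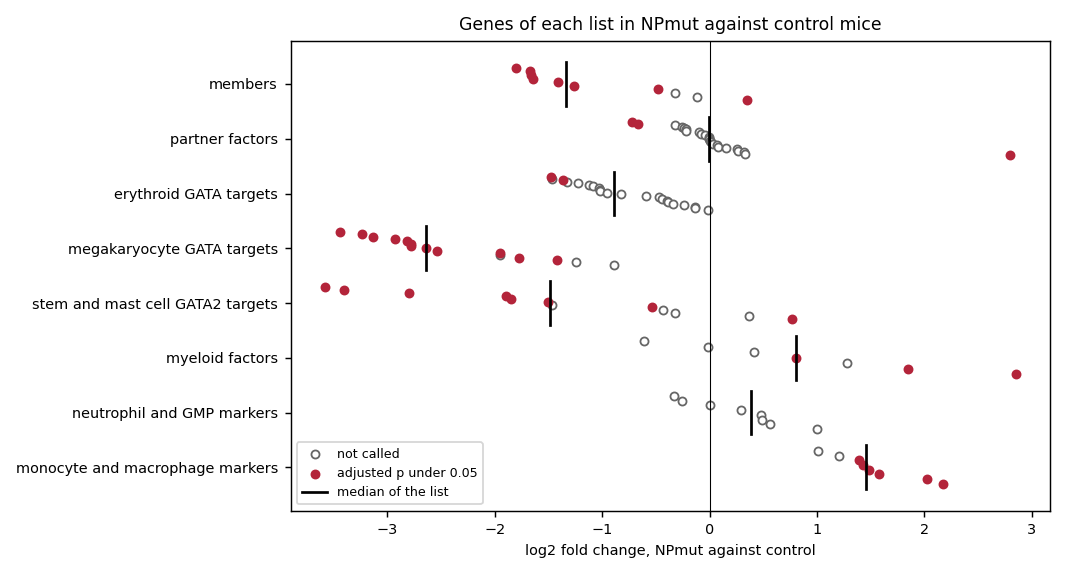
Log2 fold change of every tested gene of 8 lists in NPmut against control mice, with the median of each list as a vertical bar and genes at an adjusted p under 0.05 filled. Megakaryocyte targets lie furthest to the left with a median of -2.64, partner factors are spread around 0, and monocyte and macrophage markers lie to the right with a median of 1.46.

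Among genes of the opposing myeloid lineage, calls fell mainly on monocyte and macrophage markers. Of 7 myeloid factor genes 3 were higher and 0 lower, where 5.38% of all genes tested were higher and 5.54% lower. *Irf8*, which directs monocyte and dendritic cell fate, had 130, 141, and 134 CPM in control and 490, 616, 390, and 445 CPM in NPmut mice (log2 fold change 1.85, SE 0.23, adjusted p = 0.00044). *Klf4* was 7.22-fold higher (2.85, adjusted p = 0.0103), and *Spi1*, which encodes PU.1, a factor known to antagonize GATA1, was 1.74-fold higher (0.80, adjusted p = 0.0207). *Cebpa*, a factor of granulocyte progenitors, stood at 0.41 (adjusted p = 0.115) without overlap of the groups. Without control mouse 3, *Irf8* alone was called (adjusted p 0.0517 for *Klf4* and 0.0948 for *Spi1*), and *Spi1* was not called without control mouse 2 either (0.0711). Of 8 monocyte and macrophage markers 6 were higher and 0 lower, beside the same 5.38% and 5.54% of all genes. *Cd68* (1.39, adjusted p = 0.000329) and *F13a1* (1.58, adjusted p = 0.000877) were among the higher ones. The sum of the 8 markers was 543 to 625 CPM in control, 513 to 904 in p53mut, 467 to 709 in NrasG12D, and 1368 to 2259 CPM in NPmut mice. Of 8 neutrophil and GMP markers 0 were called by edgeR, with *Mpo* at 0.29 and *Elane* at 0.56, and *Csf3r* (-0.33) and *Ctsg* (0.48), with opposite signs, were the 2 at an unadjusted p under 0.05, against 25.6% of all genes. Their sum was 11780 to 14780 CPM in control, 9173 to 18250 in p53mut, 10220 to 14830 in NrasG12D, and 13600 to 22980 CPM in NPmut mice, so that the groups overlapped. The part of the monocyte and macrophage markers in the lower levels of the members was not tested.

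The genes whose levels over the 13 libraries were most like those of *Gata1*, *Gata2*, and *Klf1* were sought among the 12966 tested genes whose log2 CPM averaged 1 or more. For *Gata1* they were *Samd14* (Pearson r = 0.99), *Atp1b2*, *Epdr1*, *Adcy6*, and *Cttn*, and for *Gata2* they were *Gnb4*, *Mycn*, *Spns2*, *Angpt1*, and *Itga2b* (r = 0.98 to 0.99). *Klf1* was most like *Sept8*, *Epdr1*, *Adcy6*, *Cd55*, and *Epor* (r = 0.98 to 0.99), of which *Epdr1* and *Adcy6* were also named for *Gata1*. *Samd14*, *Angpt1*, *Itga2b*, and *Epor* belong to the target lists above. These values describe the libraries and share the gap between NPmut and other mice. With the group means taken out, the correlation over the 13 libraries between members was 0.98 for *Gata1* and *Tal1*, 0.96 for *Gata1* and *Zfpm1*, and 0.97 for *Klf1* and *Gfi1b*, beside 0.72 for *Gata1* and *Gata2* and 0.46 for *Gata2* and *Klf1*. It was -0.33 for *Gata1* and *Lmo2* and -0.59 for *Gata1* and *Nfe2*, and these rest mainly on the spread among the NPmut mice.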

How the data were processed

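The authors deposited 1 table of raw counts of reads per Ensembl gene for 13 mice, made from SMARTer Stranded Total RNA-Seq v1 Pico libraries with STAR 2.6.1d on GRCm38.p6 per the submitters' processing notes, which also list R 3.6.1 and DESeq2 1.26.0. The counting program, its strand setting, and its annotation release are not given in the sources used here. Identifiers were matched to GENCODE M21 (54809 of 54838).

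Groups were taken from the sample labels. Counts of all 13 libraries were fitted together in edgeR 4.0.16 (R 4.3.3, limma 3.58.1) with 1 mean per group, TMM factors, filterByExpr, and the robust quasi-likelihood test, and p-values were adjusted by Benjamini-Hochberg over the 17795 genes tested (44944 had at least 1 count). Adjusted p in the text are from this test unless another is named, and called means an adjusted p under 0.05. CPM are scaled by TMM, RPKM also by exonic length, and log2 CPM use a prior count of 2. Totals were 12576174 to 29124022 per mouse, with 113 or more reads per member, and with 3 or 4 mice per group the spread between mice limits the precision. Intervals are at 95%. The steps were tested on simulated counts. DESeq2 1.42.0 and other settings were run as alternatives.

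The members and lists were chosen with earlier results of these data known. Named were all members, the 4 genes of each list with the smallest adjusted p in NPmut against control, all genes behind counts up to 5, and for *Gata1*, *Gata2*, and *Klf1* the 5 genes most alike. *Tcf3*, *Tcf4*, *Tcf12*, *Runx1*, *Kdm1a*, *Itga2b*, *Tubb1*, *Selp*, *F2rl2*, *Rab27b*, *Ccr2*, *Thbs1*, *Clec1b*, *Hba-a1*, *Alas2*, *Mpo*, *Cpa3*, *Hdc*, *Ms4a2*, and *Hhex* were named after their values had been seen. The replicate numbers of control and p53mut mice pair by the rule that every correlation of same-numbered deviations exceed 0.1 (0.156 to 0.170). The blocked fit of all 13 libraries called 0 members there as well, and 0 of all genes. A blocked fit of these groups alone also called 0 members, with 23 of 16685 genes higher and 33 lower.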

Additional observations from a re-analysis of the deposited data

Results flagged for a closer look

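The members, and the 4 genes with the smallest adjusted p of each list other than the cell type markers, were scanned for outliers. Within the 4 NPmut mice, 3 of the genes scanned had a mouse far from the others by Dixon's ratio of the gap to the range. Chance alone exceeds its 95% critical value in about 1 of 20 groups, so that some such genes are to be expected in a scan. *Nfe2* was highest in NPmut mouse 2 (ratio 0.903), *Cbfa2t3* was lowest in NPmut mouse 2 (0.927), and *Gp1ba* was highest in NPmut mouse 3 (0.874).

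The interaction was taken as NPmut minus p53mut minus NrasG12D plus control on the log2 scale. It passed edgeR's adjusted p under 0.05 for 14 of the 117 tested genes of all lists, against 1.74% of all genes. It was -2.55 for *Gata2* (adjusted p = 0.0387) and -1.38 for *Cbfa2t3* (adjusted p = 0.018), a gene that was highest in NrasG12D mice, with 241 to 255 CPM. Among megakaryocyte genes it was -2.86 for *Vwf* (adjusted p = 0.00766), -3.72 for *Pf4* (adjusted p = 0.00323), -3.16 for *Gp1ba* (adjusted p = 0.018), -2.47 for *Gp5* (adjusted p = 0.0361), -2.84 for *Selp* (adjusted p = 0.00384), -3.73 for *F2rl2* (adjusted p = 0.0249), and -3.09 for *Rab27b* (adjusted p = 0.0344). For *Tek* it was -3.84 (adjusted p = 0.018) and for *Slc18a2* -3.41 (adjusted p = 0.0417). Positive values were called for *Irf8*, 1.49 (adjusted p = 0.0376), and for the monocyte and macrophage markers *Ccr2*, 1.53 (adjusted p = 0.048), and *F13a1*, 1.46 (adjusted p = 0.0377). The NPmut mice differ from the other groups in injections and disease stage as well, which cannot be told apart from the alleles.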

How the results depend on the processing

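Over all alternatives, *Tal1* was called lower in NPmut against control, and no member's direction turned in that comparison (of the members' values under an alternative, 117 stayed on their side of the threshold, 32 lost a call, and 1 gained one). Of 8 members called there, 2 were called without the filter on low counts (*Tal1* and *Lmo2*), 2 with only the compared groups (*Gata2* and *Tal1*), and 1 to 8 when each mouse was left out. Of all genes, 1454 were higher and 1389 lower of 44944 without the filter, and 507 and 426 of 17133 with only the compared groups. With a mouse left out, 356 to 1102 genes were higher and 457 to 1064 lower. For NPmut against NrasG12D and against p53mut (7 called in each) the count was 4 and 4 without the filter, 2 and 2 with only the compared groups, and 2 to 8 in both with a mouse left out. Without the filter, 1054 of all 44944 genes were higher and 1008 lower against NrasG12D, and 1282 and 1030 against p53mut. With only the compared groups these were 274 and 363 of 16525, and 316 and 332 of 16594. With only the compared groups 1 member, *Gata2*, was called in NrasG12D against control, where 183 of 16492 genes were higher and 56 lower. The interaction count of 1 was 3 with DESeq2, 0 with library totals, 2 with the replicate block, 2 with sex as a term (added after seeing the data), and 0 to 5 with a mouse left out. Over all genes, 90 higher and 219 lower became 364 and 550, 62 and 162, 190 and 339, and 106 and 255 in the first 4 settings. With a mouse left out, 6 to 244 genes were higher and 56 to 409 lower. Library totals moved the median of all genes in NPmut against control from 0.01 to -0.11 and the called genes from 958 higher and 986 lower to 636 and 1350.

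In the lists, partner factors higher (1) became 2 with DESeq2, 2 with the replicate block, and 1 to 2 with a mouse left out, and lower (2) became 0 with only the compared groups and 0 to 2. Erythroid targets lower (2) became 5 with DESeq2, 4 without the filter, 8 with the replicate block, 1 with only the compared groups, and 1 to 7. Megakaryocyte targets lower (12) became 6 with at least 10 counts in every library, where fewer genes are tested, and 9 to 12. GATA2 targets higher (1) became 2 with DESeq2, 0 with library totals, 2 without the filter, 0 with only the compared groups, and 0 to 1. Myeloid factors higher (3) became 1 to 3, and lower (0) became 1 with the replicate block. Over all genes, NPmut against control had 1311 higher and 1365 lower with DESeq2, and 1363 and 1398 with the replicate block. With at least 10 counts in every library, 796 of 13490 genes were higher and 713 lower. The cause of these changes was not tested.

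Signs turned only for values near 0 that were not called. In NrasG12D mice *Tal1* (0.004) was -0.001 with DESeq2, -0.001 with RLE factors, -0.042 with library totals, -0.02 with at least 10 counts, -0.012 with sex, -0.005 with only the compared groups, and -0.059 to 0.078 with a mouse left out. *Lmo2* (-0.006) was 0.024 without the filter and -0.061 to 0.064 with a mouse left out. In p53mut mice, leaving out a mouse gave -0.352 to 0.037 for *Gata1*, -0.082 to 0.104 for *Lmo2*, -0.032 to 0.221 for *Ldb1*, -0.245 to 0.124 for *Klf1*, and -0.009 to 0.123 for *Lyl1*, and the interaction of *Lyl1* was -0.022 to 0.125.

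Apart from control and p53mut mice, same-numbered mice share only a number (correlations of -0.113 to 0.303), and NPmut mouse 4 has no partner in the replicate block, under which 9 members were called in NPmut against control. Genes with few reads, such as *Fcer1a* and *Gp1ba*, are limited by depth.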
